A study of Mus musculus with 4 samples.

Results

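The sucrose diet was set against the starch diet in the prefrontal cortex of wild-type mice, by comparing the array labelled sucrose, wild-type with the array labelled starch, wild-type. These are 2 of the 4 arrays of the series, and each carries the pooled RNA of 3 mice. The mice were of the B6J strain, were 3 months old, and had eaten one of the diets for about 70 days from postnatal day 21. The other 2 arrays hold the same diets in mice heterozygous for Glo1, the glyoxalase that clears methylglyoxal, a reactive by-product of sugar breakdown. The wild-type pair shows the diet difference without the Glo1 allele, and the heterozygous pair, which shares no array with it, is given beside it as values only. Because each group is 1 array of pooled tissue, no spread between animals can be measured, no test is possible, and every difference below describes these 2 arrays. The 4 arrays lay on 1 slide, so the place on the slide and the group cannot be told apart.

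Sucrose is split in the gut into glucose and fructose, whereas starch yields glucose. The prefrontal cortex lies at the front of the rodent brain, with the olfactory bulb ahead of it, the striatum beneath it and the ventricles with their choroid plexus behind it. Its neurons turn on immediate early genes within minutes of activity, and those transcripts decay as fast. Stress in the endoplasmic reticulum (ER), interferon and the day-night clock each act on a well-known set of genes, so the genes are described below in those sets.

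A level is the background-subtracted probe signal as a multiple of its array's 75th percentile, and a difference is the log2 level on sucrose minus that on starch. A gene is read from its brightest probe among the 42094 probes that were well above background on all 4 arrays, which gave 20615 genes. The 75th percentile was 1780 on the wild-type starch array and 1906 on the wild-type sucrose array, 79.0% and 80.2% of spots were well above background, and no spot was saturated. The 299 tested probes that the array carries as repeated spots had a median SD of 0.061 for a single-spot difference, and the 8 spike-in controls that were well above background differed by -0.12 to -0.01. These are technical errors of the slide, not errors between animals. All 19 markers of cortical excitatory neurons were measured, at a summed level of 153 on starch and 182 on sucrose. Camk2a, the kinase subunit typical of these neurons, stood at 37.0 and 53.7. Most markers of the olfactory bulb and striatum were measured too, and no other tissue was compared, so these values do not check the tissue label.

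Most genes had close levels on the 2 arrays: 73.7% of genes lay within 1.2-fold and 94.1% within 1.5-fold, and the median difference was 0.00. At 2-fold, 305 genes differed (1.48% of those tested). Of them 100 were higher on sucrose (0.485%) and 205 were lower (0.994%). At the probe level 554 probes were past 2-fold (1.32%), 208 higher (0.494%) and 346 lower (0.822%). These calls lay mostly among dim probes. With the probes ranked by signal in 4 bins of near-equal size, the dimmest bin held 56.5% of the probe calls and the brightest 3.97%. Where a called probe had another probe of the same gene, that other probe differed by 1.5-fold the same way for 17.1% of calls in the dimmest bin, 52.9% and 62.2% in the bins between, and 84.6% in the brightest. Among the 13021 genes at or above the median signal, 12 were past 2-fold higher and 53 lower, which is 0.499% in all.

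**Figure D1:**
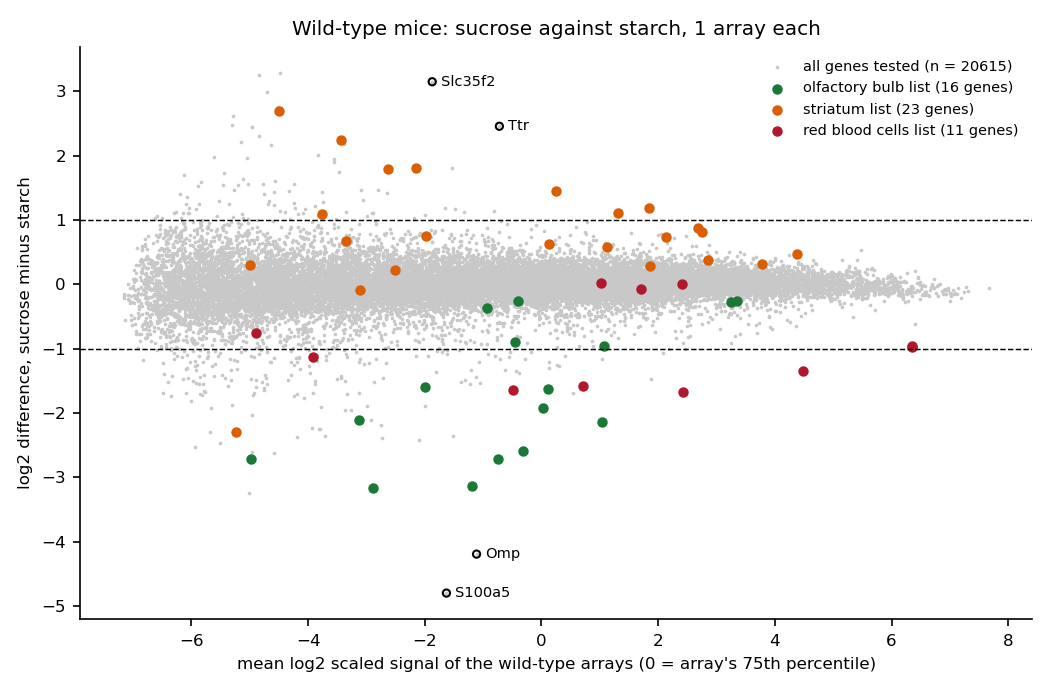
Each grey point is 1 of 20615 genes in the wild-type mice, with its mean log2 scaled signal over both arrays on the x axis and the log2 difference, sucrose minus starch, on the y axis; dashed lines mark 2-fold. The 16 olfactory bulb genes (green) all lie below 0, 21 of the 23 striatal genes (orange) lie above 0, 10 of the 11 red blood cell genes (dark red) lie below 0, and S100a5 and Omp lie lowest of all.

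The pair of genes furthest apart were olfactory and lower on sucrose. S100a5, a calcium-binding protein of olfactory sensory neurons, had a level of 1.71 on wild-type starch, 0.0612 on wild-type sucrose, 0.876 on heterozygous starch and 0.518 on heterozygous sucrose. Omp, the olfactory marker protein of the same neurons, stood at 1.98, 0.108, 0.984 and 0.721 in that order. The wild-type sucrose array was the lowest of the 4 for both, and the differences were -4.80 and -4.20, or 27.9-fold and 18.3-fold. The former came to -4.03 under another background correction, normexp. In the heterozygous pair the same genes differed by -0.76 and -0.45.

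Of 17 olfactory bulb markers 16 were measured, and all 16 were lower on sucrose, with a median of -1.77 against 0.00 over all genes and 10 members past 2-fold. Over all genes 50.2% were lower and 0.994% past 2-fold lower. Transcription factors of the mitral and tufted cells, the output neurons of the bulb, were among them. Eomes stood at 0.403 on wild-type starch and 0.0449 on wild-type sucrose, and at 0.458 and 0.277 in the heterozygous pair. Tbx21 stood at 0.238 and 0.0552, and at 0.482 and 0.202. Both were lowest on the wild-type sucrose array, with wild-type differences of -3.17 and -2.11. The former came to -2.33 under another background correction. Cdhr1, a cadherin of mitral cells, differed by -1.62, and Doc2g, a C2-domain protein, by -2.72.

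The markers of the bulb's local neurons were lower too. Th, tyrosine hydroxylase, which makes dopamine in periglomerular cells, stood at 4.29 on wild-type starch, 0.971 on wild-type sucrose, 3.77 on heterozygous starch and 2.15 on heterozygous sucrose. Its difference was -2.14 by this probe and -2.46 by its other probe. Calb2, calretinin, differed by -1.60, Scgn, the calcium sensor secretagogin, by -2.71 (-1.28 under another background correction), Sp8, a zinc finger factor of bulb interneurons, by -1.92, Trh, the thyrotropin-releasing hormone precursor, by -2.59, and Ms4a15 by -3.13. In each of these 6 genes the wild-type sucrose array was the lowest of the 4. The list members closest to 0 were Dlx2, a homeobox factor of inhibitory neurons, at -0.25, and Meis2, also a homeobox factor, at -0.27.

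The summed level of the bulb list was 41.0 on wild-type starch and 24.2 on wild-type sucrose, against 42.5 and 29.7 in the heterozygous pair. All 16 members were lower on sucrose in the heterozygous pair as well, at a median of -0.73 and with 2 past 2-fold, against 49.9% lower and 0.48% past 2-fold lower over all genes in that pair. How much bulb tissue each pool held was not measured apart from these genes, and its part in the differences was not tested. In a tissue pool, fewer cells of a type and less RNA per cell cannot be told apart, here and in every list below. Other genes that were far lower on sucrose were Shisa3, at 0.538 on starch and 0.101 on sucrose, and Vipr2, a receptor for vasoactive intestinal peptide, at 0.792 and 0.155 (its 3 probes gave -2.36, -2.46 and -0.87). Nppa, the atrial natriuretic peptide precursor, stood at 0.479 and 0.129, and Cpa6, a carboxypeptidase, at 0.205 and 0.053. The heterozygous differences of these 4 genes were -0.67, -0.92, -0.64 and -0.89.

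**Figure D2:**
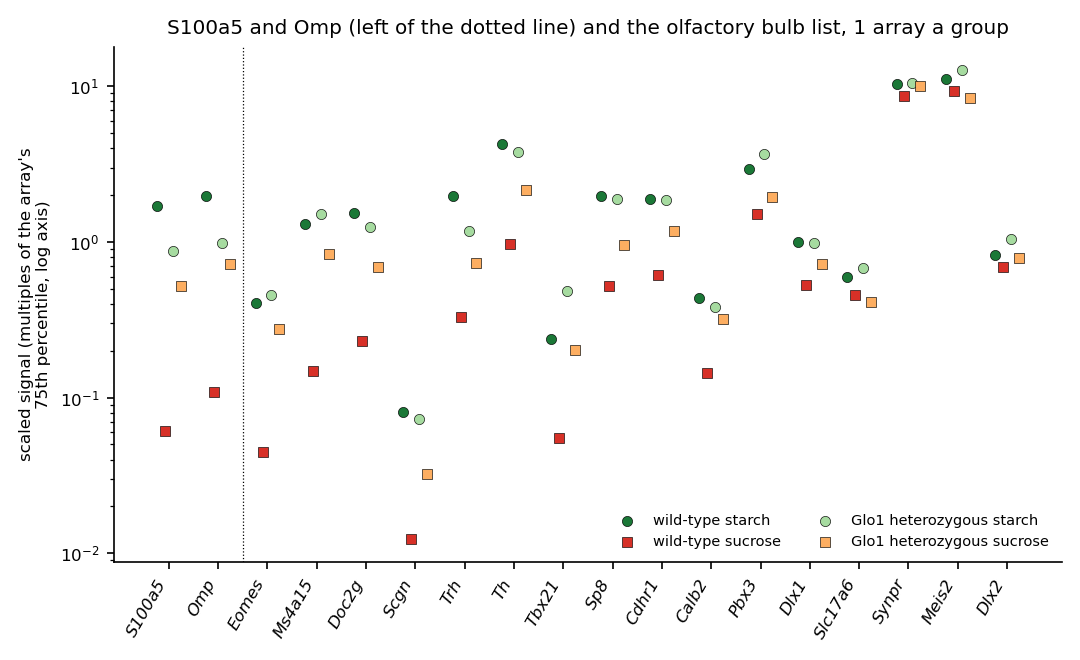
Scaled signal on a log axis, in multiples of the array's 75th percentile, of S100a5, Omp and the 16 measured olfactory bulb genes, with 1 point for each of the 4 arrays (circles starch, squares sucrose, dark wild-type, light Glo1 heterozygous). The wild-type sucrose array is the lowest of the 4 for S100a5, Omp and the 10 bulb genes past 2-fold, while the 4 values of Meis2 lie close together.

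Striatal genes ran the other way. Of 25 markers of the striatum 23 were measured, 21 were higher on sucrose and 2 lower, and the median was 0.73. Over all genes 49.8% were higher. Of the 23, 8 were past 2-fold higher (0.485% of all genes) and 1 was past 2-fold lower (0.994%). Their summed level was 61.2 on starch and 92.2 on sucrose. Heterozygous mice had 21 of the 23 lower on sucrose and 7 past 2-fold lower, at a median of -0.79, against 49.9% and 0.48% over all genes. Their summed levels were 84.5 and 57.3, so that wild-type starch and heterozygous sucrose were the low arrays. The part of striatal tissue in these differences was not tested.

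Among the receptors of striatal projection neurons, Drd1, the D1 dopamine receptor, stood at 0.720 on wild-type starch, 1.97 on wild-type sucrose, 1.71 on heterozygous starch and 0.706 on heterozygous sucrose. Its difference was 1.45, and 1.40 by a second probe. Adora2a, the adenosine receptor of the indirect pathway, stood at 0.0861, 0.299, 0.295 and 0.0853, a difference of 1.80. The same order of arrays, 2 low and 2 high, held for Gpr6, an orphan receptor, at 0.121, 0.424, 0.273 and 0.130, with a difference of 1.81 by this probe and 0.83 by its other. It also held for Rgs9, a regulator of G-protein signalling, at 2.38, 5.45, 4.80 and 2.20. The difference of Rgs9 was 1.19 by its brightest probe and 0.94 over the mean of its 5 probes.

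Signalling proteins and peptides of these neurons differed by less: Ppp1r1b (DARPP-32) by 0.81, Tac1, the substance P precursor, by 0.88, Pdyn, the dynorphin precursor, by 0.73, Pde10a, a phosphodiesterase, by 0.58, and Penk, the enkephalin precursor, by 0.46. Of 5 measured markers of cholinergic neurons 4 were higher (49.8% over all genes) and 1 lower, at a median of 0.68, and they varied in size. Slc18a3 differed by 0.68. Slc10a4, a vesicle transporter, differed by 2.25 and Slc5a7, the choline transporter, by 1.1 (0.71 under another background correction), but Chat, which makes acetylcholine, by 0.23 and Lhx8, a factor of these neurons, by -0.08. Six3, a homeobox factor, differed by 2.70, from levels of 0.0174 and 0.113. Under another background correction Six3 gave 1.24 and Slc10a4 1.46. Drd2, the D2 receptor, was dim, at 0.0282 and 0.0349. Drd3, a dopamine receptor, was the member past 2-fold lower, at 0.0587 on wild-type starch and 0.0101 to 0.0119 on the other 3 arrays, and its -2.30 came to -1.07 under that correction.

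Among the bright genes outside the lists that were higher on sucrose, Oprk1, the kappa opioid receptor that dynorphin acts on, stood at 0.184 and 0.645, a difference of 1.81 by one probe and 1.78 by the other. In the heterozygous pair those probes gave 0.24 and -0.52. Slc35f2, a member of the solute carrier family, stood at 0.0916 on wild-type starch and at 0.813, 0.654 and 0.832 on the wild-type sucrose, heterozygous starch and heterozygous sucrose arrays, so the low starch array stands apart. Its difference of 3.15 rests on 1 probe. Epha8, an ephrin receptor, differed by 1.14, and Serpina9, a serine protease inhibitor, by 1.16.

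Choroid plexus genes were split in the wild-type pair. Of 19 markers 17 were measured, 12 were higher on sucrose and 5 lower, with a median of 0.23, 4 past 2-fold higher and 2 past 2-fold lower. The shares over all genes were 49.8% higher, 0.485% past 2-fold higher and 0.994% past 2-fold lower. Ttr, transthyretin, the thyroid hormone carrier that this epithelium secretes, stood at 0.259 on wild-type starch, 1.42 on wild-type sucrose, 0.102 on heterozygous starch and 58.7 on heterozygous sucrose. The heterozygous sucrose array was far above the other 3. The wild-type difference of Ttr was 2.46 by this probe and 0.75 by its other probe. Clic6, a chloride channel protein, differed by 1.42, Kcne2, a potassium channel subunit, by 1.74 and Krt18, a keratin, by 1.02, but the latter 2 were dim and gave 0.42 and 0.32 under another background correction. Aqp1, the water channel of this epithelium, went the other way, at 0.274 on wild-type starch and 0.0634 on wild-type sucrose, and so did Cltrn, at 0.0434 and 0.00882 (-0.89 under that correction). The summed level of the list was 17.7 and 19.1 in wild-type mice, against 17.1 and 107.6 in heterozygous mice. Enpp2, a member of the list, made up most of the wild-type sums. Its levels were 15.68 and 15.76 in wild-type mice and 15.03 and 32.45 in heterozygous mice.

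Genes of the ependyma and its motile cilia, which line the ventricles, were lower in 9 of 11 (50.2% over all genes), at a median of -0.33. Foxj1, the master factor of motile cilia, was the member past 2-fold lower (0.994% over all genes), at 0.111 and 0.0549 (-0.72 under another background correction), and Wdr63, a part of the ciliary motor complex, stood at 0.00925 and 0.00629. All 11 were higher on sucrose in heterozygous mice and 9 past 2-fold higher, against 50.1% and 1.29% over all genes. Hormone genes of the pituitary and hypothalamus had no common direction. Oxt, the oxytocin precursor, stood at 0.319 and 0.0696, a difference of -2.19, or -0.51 by its other probe. Avp, the vasopressin precursor, stood at 0.0370 and 0.0165, past 2-fold but at -0.54 under another background correction. Prl, prolactin, stood at 0.0101 and 0.0305 and its difference of 1.59 came to 0.33 under it. The median of the 13 measured hormone genes was 0.07 and took the other sign, -0.08, under that correction.

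Transcripts of red blood cells were lower on sucrose. Of 16 markers 11 were measured and 10 were lower, with a median of -0.98 and 5 past 2-fold, against 50.2% lower and 0.994% past 2-fold lower over all genes. The summed level was 288 on starch and 145 on sucrose. Hbb-b2, a beta-globin, stood at 9.64 on wild-type starch, 3.00 on wild-type sucrose, 6.67 on heterozygous starch and 3.96 on heterozygous sucrose. Alas2, which starts haem synthesis in red cells, stood at 1.27, 0.405, 0.969 and 0.530. In both genes the starch arrays lay above the sucrose arrays. Hba-a1, an alpha-globin, differed by -0.98 by its brightest probe and by -1.41 by its other, and the latter was the only repeated probe of the array past 2-fold. The globin genes are near-identical copies, and how far each probe reads its neighbours was not tested. Fech, which puts iron into haem in all cells, lay at 0.00, and Bpgm, an enzyme of red cell metabolism, at -0.08. The heterozygous pair gave a median of -0.59 with none past 2-fold.

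White blood cell and border macrophage markers were lower in 13 of 15 (50.2% over all genes), at a median of -0.44 and summed levels of 7.97 and 5.76. Ccr2, a chemokine receptor of monocytes, was the member past 2-fold lower (0.994% over all genes), at 0.0845 on wild-type starch and 0.0123 to 0.0142 on the other arrays. Its -2.75 came to -1.37 under another background correction. H2-Ab1, a class II antigen-presenting chain, stood at 1.03 and 0.584, and its dimmest probe gave -1.49. Among 20 measured clotting and platelet genes 14 were lower (50.2% over all genes) and 2 past 2-fold lower (0.994% over all genes), at a median of -0.16. Ppbp, a platelet chemokine, stood at 0.0659 and 0.0224 and Clec1b, a platelet receptor, at 0.0316 and 0.0135. Both were past 2-fold but gave -0.89 and -0.48 under another background correction.

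**Figure D3:**
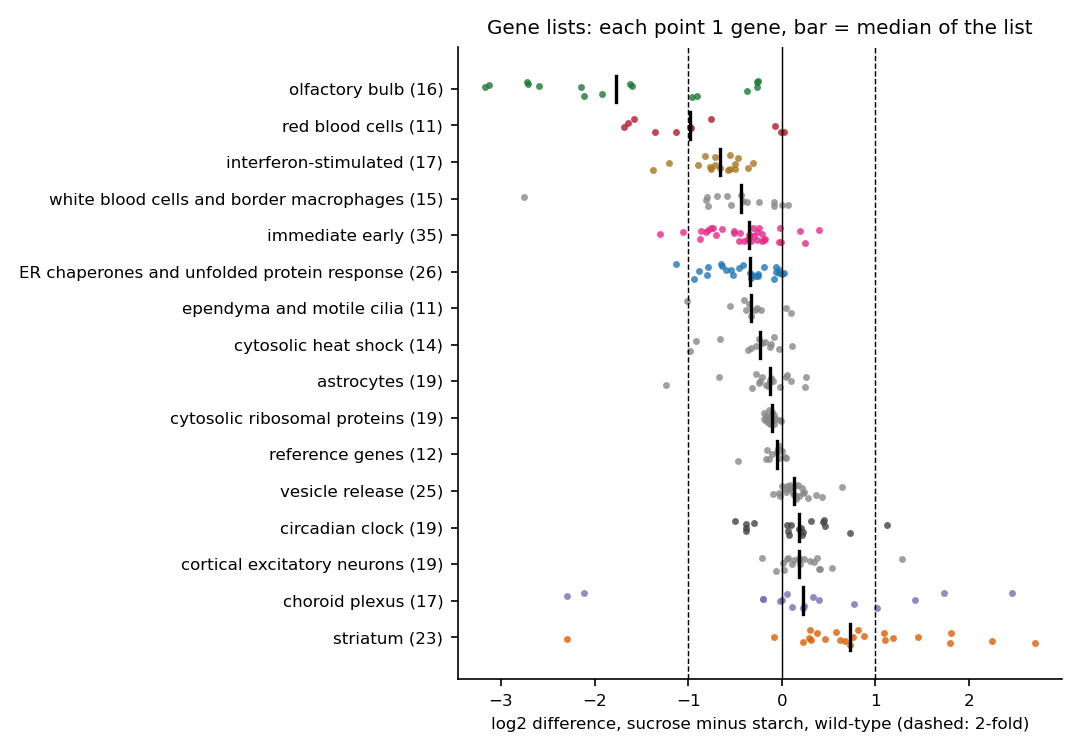
Log2 difference, sucrose minus starch, in wild-type mice on the x axis for 16 of the gene lists, with each point 1 gene, the bar the median and the number of measured genes in brackets; dashed lines mark 2-fold. The medians run from -1.77 for the olfactory bulb list to 0.73 for the striatum list, and the interferon, immediate early and ER chaperone lists have medians of -0.66, -0.35 and -0.34 with few members past 2-fold.

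Interferon-stimulated genes were lower on sucrose as a group. All 17 were measured and all 17 were lower, at a median of -0.66, against 50.2% of all genes lower and 49.8% higher. Past 2-fold lower were 2 of them, against 0.994% of all genes. Isg15, a ubiquitin-like protein, stood at 1.23 on wild-type starch, 0.474 on wild-type sucrose, 0.743 on heterozygous starch and 0.460 on heterozygous sucrose, a wild-type difference of -1.38. Bst2, tetherin, which holds budding viruses at the membrane, stood at 0.720, 0.312, 0.431 and 0.461, a difference of -1.21. The wild-type starch array was the highest of the 4 for both. The member closest to 0 was Ifi27, at -0.31. Of the 17, 15 were lower on sucrose in the heterozygous pair too, where 49.9% of all genes were lower and 50.1% higher, at a median of -0.59 and with none past 2-fold. Levels of the white blood cell list moved with these genes, and their part was not tested.

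The promoters of Isg15 and Bst2 are shown because both carry the repeated GAAA core of the interferon response element. Each run is the 250 bases before the gene's start from RefSeq, GRCm38.p6, 5′ to 3′ on the gene's strand, with the matches in capitals (GAAA, any 2 bases, then GAAA).
Isg15 (chr4:156200819-156201068, minus strand): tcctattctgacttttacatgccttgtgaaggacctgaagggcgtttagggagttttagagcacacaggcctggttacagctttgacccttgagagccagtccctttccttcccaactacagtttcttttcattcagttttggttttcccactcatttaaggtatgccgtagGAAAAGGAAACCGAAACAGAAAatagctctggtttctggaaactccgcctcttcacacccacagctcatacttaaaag
Bst2 (chr8:71537473-71537722, minus strand): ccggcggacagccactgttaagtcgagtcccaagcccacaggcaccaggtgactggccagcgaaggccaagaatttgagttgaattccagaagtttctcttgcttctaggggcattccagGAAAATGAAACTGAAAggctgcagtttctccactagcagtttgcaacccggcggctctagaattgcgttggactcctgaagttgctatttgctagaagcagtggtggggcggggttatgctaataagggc
Isg15 holds 3 overlapping matches, from 78 to 57 bases before the start, and Bst2 holds 2, from 130 to 115 bases before it. Searched on both strands, this pattern was found in 7 of the 11 interferon-stimulated genes with a promoter entry (63.6%) and in 3.46% of all 27025 genes with one. This motif and these 2 promoters were chosen after the values were seen, and a match describes the letters only.

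The immediate early list was measured in full, and 32 of its 35 members had the lower value on sucrose, where 50.2% of all genes had, at a median of -0.35. Their summed level was 197 on starch and 160 on sucrose. Past 2-fold lower were 2 members, against 0.994% of all genes. Egr2, a zinc finger factor, stood at 1.72 on wild-type starch, 0.695 on wild-type sucrose, 2.15 on heterozygous starch and 0.633 on heterozygous sucrose, with the starch arrays above the sucrose arrays, and its wild-type difference was -1.30. Dusp4, a MAP kinase phosphatase, stood at 0.994, 0.479, 1.13 and 0.730. Its difference of -1.05 came to -0.98 under another background correction and -0.99 over the mean of its probes.

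The other factors of this list differed by less. Egr1 stood at 16.7 on wild-type starch and 9.92 on wild-type sucrose, and at 17.4 and 8.05 in the heterozygous pair, a wild-type difference of -0.75. The other zinc finger factors, Egr3 and Egr4, gave -0.51 and -0.35. Within the AP-1 family, whose proteins pair up on DNA, Fos stood at 1.89 and 1.22 in wild-type mice and at 2.29 and 0.968 in heterozygous mice. Fosl2 differed by -0.87, Fosb by -0.86, Fos by -0.64 and Junb by -0.18, while Jund gave -0.01 and Jun 0.20. Npas4, an activity-bound factor of neurons, stood at 2.18 and 1.24. The nuclear receptors were mixed, with Nr4a1 at -0.51, Nr4a3 at -0.36 and Nr4a2 at 0.25.

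The members that are neither transcription factors nor phosphatases were lower in 11 of 11. Arc, which removes receptors from synapses, stood at 9.29 and 6.74, and at 11.9 and 5.89 in heterozygous mice. Bdnf, a neurotrophin, stood at 1.75 and 1.06, and Ptgs2, cyclooxygenase 2, at 0.667 and 0.409. Vgf, a neuropeptide precursor, differed by -0.31 and Nptx2, a pentraxin that gathers glutamate receptors, by -0.30. Among the 4 phosphatases, Dusp5 differed by -0.79 and Dusp6 by -0.24, and Dusp1 was higher, at 0.40. In the heterozygous pair 32 of the 35 genes were lower on sucrose too, at a median of -0.48 and with 5 past 2-fold, against 49.9% lower and 0.48% past 2-fold lower over all genes, and 30 were lower in both pairs, where 30.2% of all genes were.

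Homer1, which makes long scaffold forms and a short form induced by activity, was read by 4 probes that did not give 1 value. The probe at chr13:94129858-94129917 (build mm9, per the file's probe annotation) stood at 2.74 on wild-type starch, 0.850 on wild-type sucrose, 2.81 on heterozygous starch and 0.887 on heterozygous sucrose. The starch arrays were high and the sucrose arrays low, with differences of -1.69 and -1.66 in the pairs. The brightest probe, at chr13:94174815-94174874, gave -0.26, and the remaining probes gave -0.35 and -0.38. Which form the first probe reads is not given in the sources used here.

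The promoters of Egr2 and Dusp5 are shown as the immediate early genes that hold a CArG box, the site of serum response factor. Each run is 250 bases before a start, from RefSeq, GRCm38.p6, 5′ to 3′ on the gene's strand, with the CArG boxes in capitals. Egr2 has several starts in the table, and the run shown belongs to its second.
Egr2 (chr10:67537316-67537565, plus strand): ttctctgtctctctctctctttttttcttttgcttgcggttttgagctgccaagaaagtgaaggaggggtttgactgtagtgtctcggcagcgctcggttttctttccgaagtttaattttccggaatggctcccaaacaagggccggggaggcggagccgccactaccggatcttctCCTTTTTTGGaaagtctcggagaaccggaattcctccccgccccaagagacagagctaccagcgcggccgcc
Dusp5 (chr19:53528895-53529144, plus strand): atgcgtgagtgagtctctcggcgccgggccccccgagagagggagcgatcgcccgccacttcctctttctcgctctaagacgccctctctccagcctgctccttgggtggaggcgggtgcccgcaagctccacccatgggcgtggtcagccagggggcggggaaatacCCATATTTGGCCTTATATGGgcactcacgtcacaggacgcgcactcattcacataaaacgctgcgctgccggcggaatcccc
The box of Egr2 lies 72 to 63 bases before the start, and Dusp5 holds 2 adjoining boxes, 82 to 73 and 72 to 63 bases before it. Among the 25 immediate early genes with a promoter entry, 2 held a CArG box (8%), against 1.62% of all genes, and 3 held TGACGTCA, the cAMP response element (12%), against 1.77%. The motifs were searched on both strands. Fosl1, Egr1, Egr3, Ier2, Arc, Sik1, Trib1, Nptx2, Vgf and Dusp4 were without an entry.

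**Figure D4:**
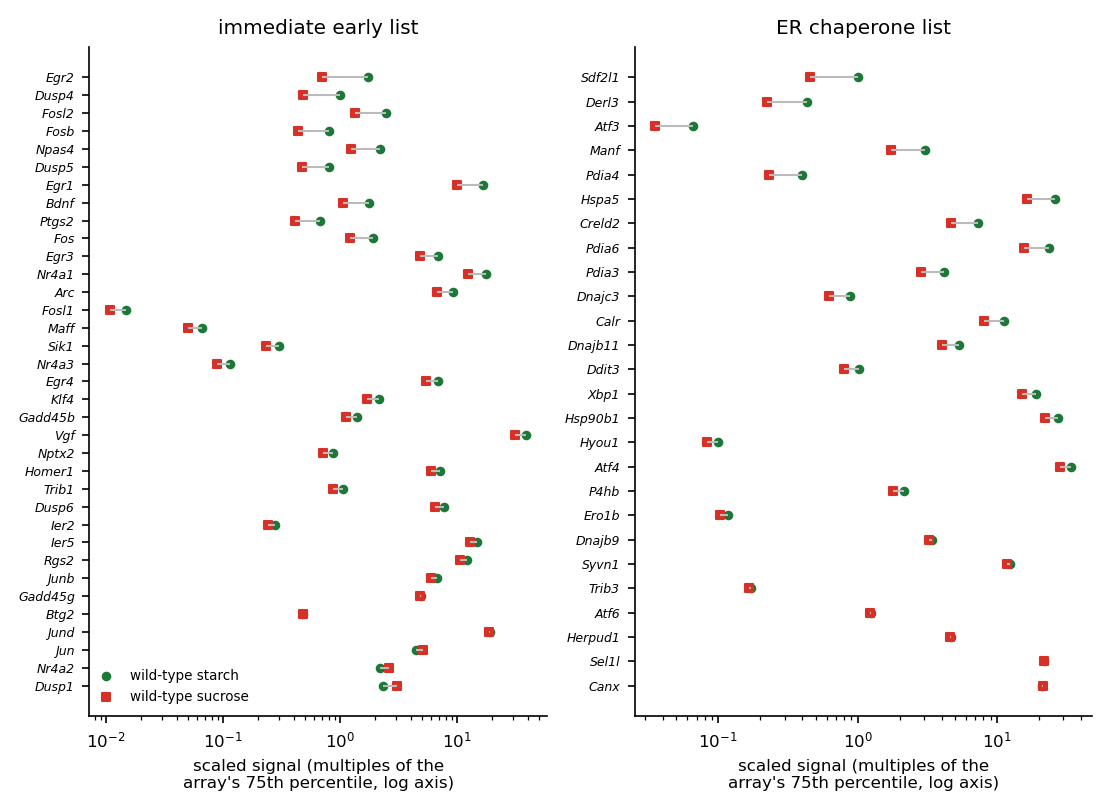
Scaled signal on the wild-type starch array (green circles) and the wild-type sucrose array (red squares) on a log axis, in multiples of the array's 75th percentile, for the 35 immediate early genes (left) and the 26 ER chaperone genes (right), with a line joining the pair of values of a gene. The sucrose value lies below the starch value in 32 of 35 and 25 of 26 genes, by less than 2-fold in all but Egr2, Dusp4 and Sdf2l1.

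Genes of ER chaperones and the unfolded protein response were lower on sucrose in 25 of 26, all measured, at a median of -0.34, where 50.2% of all genes were lower. Past 2-fold lower was 1 member, against 0.994% of all genes. This was Sdf2l1, an ER protein of the chaperone complex, at 1.0 on wild-type starch, 0.458 on wild-type sucrose, 0.842 on heterozygous starch and 0.404 on heterozygous sucrose. The starch arrays lay above the sucrose arrays, and the wild-type difference was -1.13. Hspa5, the master chaperone BiP, stood at 25.9, 16.5, 25.8 and 16.1, again with starch above sucrose. Its 3 probes gave -0.65, -0.91 and -0.89. Hsp90b1, another chaperone of the lumen, differed by -0.32 and Calr, calreticulin, by -0.46.

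Manf, a secreted protein induced by ER stress, stood at 3.02 on starch and 1.74 on sucrose, and Creld2, likewise secreted, at 7.29 and 4.68. The disulphide isomerases were lower as well, Pdia4 by -0.79, Pdia6 by -0.59 and Pdia3 by -0.54. Among the 4 genes of ER-associated degradation, Derl3 stood at 0.430 and 0.225, while Herpud1, Syvn1 and Sel1l lay at -0.03, -0.06 and 0.00. The transcription factors differed by less, Atf4 by -0.26, Xbp1 by -0.33 and Ddit3, or CHOP, by -0.34, although Atf3, a dim gene, differed by -0.88. Canx, calnexin, was the member that was higher, at 0.03. Heterozygous mice also had 25 of 26 lower on sucrose (49.9% over all genes), at a median of -0.33, and 24 were lower in both pairs, where 30.2% of all genes were.

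The promoters of Hspa5, Creld2 and Derl3 are shown because they hold the ER stress element, which is CCAAT and CCACG with any 9 bases between them and is given in capitals on whichever strand it lies. Each run is the 250 bases before the start from RefSeq, GRCm38.p6, 5′ to 3′ on the gene's strand.
Hspa5 (chr2:34771840-34772089, plus strand): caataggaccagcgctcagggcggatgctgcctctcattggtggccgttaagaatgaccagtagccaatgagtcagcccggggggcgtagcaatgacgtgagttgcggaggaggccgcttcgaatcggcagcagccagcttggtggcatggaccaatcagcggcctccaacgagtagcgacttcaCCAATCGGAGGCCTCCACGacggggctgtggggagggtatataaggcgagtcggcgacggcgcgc
Creld2 (chr15:88819396-88819645, plus strand): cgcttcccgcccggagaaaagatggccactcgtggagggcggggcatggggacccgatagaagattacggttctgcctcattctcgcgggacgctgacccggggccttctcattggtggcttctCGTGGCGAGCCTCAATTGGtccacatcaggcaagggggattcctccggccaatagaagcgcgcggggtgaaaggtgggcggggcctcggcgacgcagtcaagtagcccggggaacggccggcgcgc
Derl3 (chr10:75893148-75893397, plus strand): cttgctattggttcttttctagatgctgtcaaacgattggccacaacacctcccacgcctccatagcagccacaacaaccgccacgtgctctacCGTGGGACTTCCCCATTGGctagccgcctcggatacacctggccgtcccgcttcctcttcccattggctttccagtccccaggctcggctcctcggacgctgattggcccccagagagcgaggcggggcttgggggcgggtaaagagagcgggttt
The element lies 65 to 47 bases before the start of Hspa5, 126 to 108 before Creld2 and 156 to 138 before Derl3. It was found in 10 of the 23 ER genes with an entry (43.5%) and in 0.13% of all genes. The 10 carriers ranged from -0.94 in Derl3 to 0.03 in Canx, so holding the element went with no single size of difference. Hyou1, Manf and Atf6 were without an entry.

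Cytosolic heat shock genes were lower in 13 of 14 (50.2% over all genes), at a median of -0.23 with none past 2-fold. Hspa1b, an inducible HSP70, stood at 1.68 on wild-type starch, 0.855 on wild-type sucrose, 1.48 on heterozygous starch and 0.917 on heterozygous sucrose. Hspb1, a small heat shock protein, stood at 7.41, 3.93, 7.58 and 4.15. For both the starch arrays lay above the sucrose arrays. Bag3, a partner of HSP70, gave -0.02, and Hspa4, an HSP110-type protein, was higher by 0.11.

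Of 19 clock genes 14 were higher on sucrose, where 49.8% of all genes were, at a median of 0.19. Only 1 was past 2-fold (0.485% of all genes were, higher). Ciart, a repressor bound to the clock, stood at 0.272 on wild-type starch, 0.590 on wild-type sucrose, 0.285 on heterozygous starch and 0.443 on heterozygous sucrose. Its difference was 1.12 by one probe and 0.38 by the other, and the brighter probe came to 0.98 under another background correction. Nr1d1, or REV-ERB alpha, the nuclear receptor that represses Arntl, stood at 0.409, 0.678, 0.408 and 0.623. By these probes both genes were higher on each sucrose array than on either starch array, but the other probe of Ciart was lowest on heterozygous sucrose, at 0.0866. Dbp, an output factor, differed by 0.47, Per3 by 0.44 and Bhlhe41, a repressor, by 0.45. Arntl, the activator BMAL1, went the other way at -0.38, and so did the repressors Per2 and Cry1, both at -0.38, and the output factor Nfil3, at -0.49. Clock and Per1 lay near 0. The heterozygous pair had 8 of 19 higher (50.1% over all genes) and a median of -0.04. The hour at which each pool was taken is not given in the sources used here, and its part was not tested.

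The promoter of Ciart is shown because it holds 3 copies of the E-box CACGTG, in capitals, to which the clock activators bind. The run is the 250 bases before the start from RefSeq, GRCm38.p6, 5′ to 3′ on the gene's strand.
Ciart (chr3:95882229-95882478, minus strand): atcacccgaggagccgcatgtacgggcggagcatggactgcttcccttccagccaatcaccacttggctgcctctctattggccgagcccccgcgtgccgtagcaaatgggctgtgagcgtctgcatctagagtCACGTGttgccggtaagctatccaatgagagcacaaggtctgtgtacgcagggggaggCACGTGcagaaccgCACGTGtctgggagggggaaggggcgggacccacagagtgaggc
The copies lie 116 to 111, 58 to 53 and 44 to 39 bases before the start. CACGTG was found in 5 of the 17 clock genes with an entry (29.4%), in 6 of 25 immediate early genes (24%), in 3 of 23 ER genes (13%) and in 6.86% of all genes, and Cry1, with a copy, was lower on sucrose. Per2 and Bhlhe40 were without an entry.

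Genes of sugar handling differed little between the diets. The 15 measured transporters of sugar and monocarboxylates had a median of -0.02. Slc16a3, a lactate exporter, was higher by 0.50 and Slc2a2, the liver-type glucose transporter, lower at -0.27. The transporter past 2-fold higher (0.485% over all genes) was Slc5a2, the sodium-glucose transporter of the kidney, at 0.0103 and 0.0407, but its other probe gave 0.14. None of 27 genes of glycolysis and fructose use was past 2-fold, at a median of -0.03. Only 1.48% of all genes were past 2-fold, so a list of this size would often hold none. The lowest was Pfkfb3, which makes the activator of phosphofructokinase, at -0.52. The 12 insulin and IGF genes had a median of -0.03 with none past 2-fold, and Irs2, an insulin receptor substrate, was lowest at -0.51.

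Glo1 itself was higher on sucrose by each of its 3 probes, at 0.45, 0.43 and 0.48. Its brightest probe stood at 4.04 on wild-type starch, 5.53 on wild-type sucrose, 2.74 on heterozygous starch and 3.04 on heterozygous sucrose, so both heterozygous arrays lay below both wild-type arrays, which fits the labels. Over the 14 genes of carbonyl detoxification the median was -0.03 with none past 2-fold, and Aldh2, a mitochondrial aldehyde dehydrogenase, was lowest at -0.45. Its other probes gave -0.37, -1.16 and -0.03, so 1 of them was past 2-fold. Among 11 measured receptors and ligands of advanced glycation products the median was -0.13, and Lgals3, galectin 3, was past 2-fold lower, at 0.142 and 0.0669 (-0.79 under another background correction). The 22 antioxidant genes gave -0.04, the 21 genes of cholesterol and fatty acid synthesis 0.04 and the 21 of mitochondrial respiration -0.03, none with a member past 2-fold. The share past 2-fold was 1.48% over all genes. The antioxidant genes ran from Nfe2l2, the NRF2 factor, at -0.34 to Gclc, which starts glutathione synthesis, at 0.20. The lowest of the other lists were Elovl6, a fatty acid elongase, at -0.12, and Cox4i1, a subunit of cytochrome oxidase, at -0.14.

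Genes of neurotransmission were close to level. Of 36 GABA and glutamate receptor genes 25 were higher, at a median of 0.08, and Gabrg3, a GABA receptor subunit, was highest at 0.55. Of 25 genes of vesicle release 22 were higher, at a median of 0.13, and 17 of 19 cortical excitatory markers were, at 0.19, where 49.8% of all genes were higher. Of those, 6 and 8 were higher in heterozygous mice, where 50.1% of all genes were. Foxp2, a deep-layer factor that the striatum also makes, was the cortical marker past 2-fold, at 0.0480 and 0.117, and came to 0.69 under another background correction. The 20 potassium and HCN channels had a median of 0.05. Interneuron markers had a median of -0.08. Apart from Calb2, described with the bulb, they ran from Gad1, which makes GABA, at -0.40 to Pvalb, parvalbumin, at 0.32. The other 3 probes of Gad1, all dimmer, gave -1.07, -0.63 and -1.16.

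Among 20 neuropeptide precursors the median was 0.04, and Nmb, neuromedin B, was past 2-fold lower, at 2.62 on wild-type starch, 0.811 on wild-type sucrose, 2.53 on heterozygous starch and 2.0 on heterozygous sucrose. The wild-type sucrose array was the low one. Cartpt, a peptide precursor found in striatum and hypothalamus, was the highest, at 0.92. Of 21 measured serotonin and dopamine genes 2 were past 2-fold higher (0.485% over all genes) and 3 lower (0.994%). Besides Drd1, Th and Drd3, already given, these were Htr4, a serotonin receptor, at 1.13 (-0.22 by its other probe) and Htr5b, another, at -1.46. Htr4 came to 0.52 under another background correction, below 2-fold. The list of 15 glucocorticoid targets and the 2 corticosteroid receptors had a median of -0.07. Plin4, a lipid droplet protein, was past 2-fold lower, at 0.728, 0.248, 0.381 and 0.221, with the wild-type starch array the high one.

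Glia and vessels differed by small amounts. Astrocyte markers had a median of -0.13, with Lcn2, lipocalin 2, which reactive astrocytes make, at -1.24 (0.187 and 0.0795) and Gfap, their filament protein, at -0.68 (2.05 and 1.29). Lcn2 gave -0.97 under another background correction. Microglial and cytokine genes gave -0.16 and oligodendrocyte genes -0.12, with none past 2-fold. Their lowest members were Ccl4, a chemokine, at -0.83 and Mobp, a myelin protein, at -0.39. Endothelial genes gave -0.02, pericyte and smooth muscle genes 0.00 and meningeal fibroblast genes 0.08, none with a member past 2-fold. The share past 2-fold was 1.48% over all genes. Ly6a, an endothelial surface protein, was at -0.71, Pdgfrb, the receptor that marks pericytes, at 0.38, and Slc6a13, a GABA transporter of the meninges, at -0.75.

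Of 9 measured melanocyte genes Tyrp1 and Tyr, which make pigment, were past 2-fold lower (0.994% over all genes) at -1.58 and -1.01, and gave -0.81 and -0.67 under another background correction. The list's median was -0.06. The 19 prostaglandin genes had a median of -0.06, or 0.00 after quantile normalisation, with none past 2-fold. All 19 measured ribosomal protein genes were lower (50.2% over all genes), by small amounts, at a median of -0.11. This median came to -0.039 after quantile normalisation, and the 8 spike-in controls well above background also differed by -0.12 to -0.01. The 12 reference genes had a median of -0.05, and the lowest, B2m, the light chain of class I antigen-presenting molecules, was at -0.47.

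Some of the largest differences among dim probes were those of 1 array. 1700019M22Rik stood at 0.139 on wild-type sucrose and at 0.0118 to 0.0146 on the other 3 arrays, and 4930429E23Rik at 0.108 against 0.0111 to 0.0113. Pdcd1, the inhibitory receptor PD-1 of lymphocytes, stood at 0.108 against 0.0136 to 0.0184. Each was read by 1 probe, and the heterozygous differences were -0.30, -0.02 and 0.37. 1700012B09Rik was lower on wild-type sucrose, at 0.0100 against 0.0627 to 0.113. Under another background correction the wild-type differences came from 3.29 to 1.65 for 1700019M22Rik, from 3.25 to 1.27 for 4930429E23Rik, from 2.99 to 1.22 for Pdcd1 and from -3.24 to -1.65 for 1700012B09Rik. Of the 100 genes higher past 2-fold, 27 had the sucrose array and 3 the starch array at least 2-fold beyond the rest, with those 3 less than 2-fold apart, and of the 205 lower these numbers were 31 and 41. Probes well above background on 1 wild-type array only give bounds. These were brighter on sucrose for 630 genes, 93 by at least 2-fold, and brighter on starch for 385, 120 by at least 2-fold. A bound is the bright level over the higher of the probe's own level on the dim array and the lowest level well above background there. Stfa2l1 was at least 32.3-fold higher and Tmem45a2 at least 24.4-fold higher on sucrose, and Gm30225 and Cox8c at least 26.9-fold and 25.3-fold lower. None of these genes was well above background on either heterozygous array, with levels of 0.00139 to 0.00176 there.

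Where a gene had 2 or more probes, as 9074 genes did, 5 genes had all probes past 2-fold higher and 14 had all past 2-fold lower. The higher ones included Oprk1, Drd1, Slc5a7, Serpina9 and Pla2g4e, a phospholipase, at 0.0902 and 0.195 (0.87 under another background correction). The lower ones included Ms4a15, Th, Klhl30, Cpa6, Nppa and Calb2. Klhl30, a kelch-family protein, stood at 0.157 on wild-type starch and at 0.0330, 0.0784 and 0.0576 on the wild-type sucrose, heterozygous starch and heterozygous sucrose arrays, and its -2.25 came to -1.43 under another background correction. Single probes carried most of the rest, with 76 of the 100 genes higher past 2-fold and 161 of the 205 lower read by 1 probe. Most genes tested were read by 1 probe in any case, since only 9074 of all 20615 had more.

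In the heterozygous pair 364 genes were past 2-fold (1.77%), 265 higher (1.29%) and 99 lower (0.48%). Of the 100 genes higher past 2-fold in wild-type mice, 68 were higher in heterozygous mice, 16 of them past 2-fold, and 12 were past 2-fold the other way. Of the 205 lower, 145 were lower again, 23 of them past 2-fold, and 7 were past 2-fold the other way. Much of this holds for any gene. Over all genes, 6210 of the 10276 higher in wild-type mice were higher in heterozygous mice too. Likewise 6224 of the 10339 lower were lower in both pairs. Across genes, which are not independent replicates, the differences of the pairs had a Pearson correlation of 0.24, and 0.38 at or above the median signal. The lists fell into kinds. Bulb, red blood cell, interferon, immediate early, ER and heat shock genes were lower on sucrose in both pairs by their medians, striatal genes had opposite signs, and the choroid plexus and ependyma medians were 0.23 and -0.33 in wild-type mice against 3.53 and 1.26 in heterozygous mice. With 1 array a group, the difference between the pairs was not tested.

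**Figure D5:**
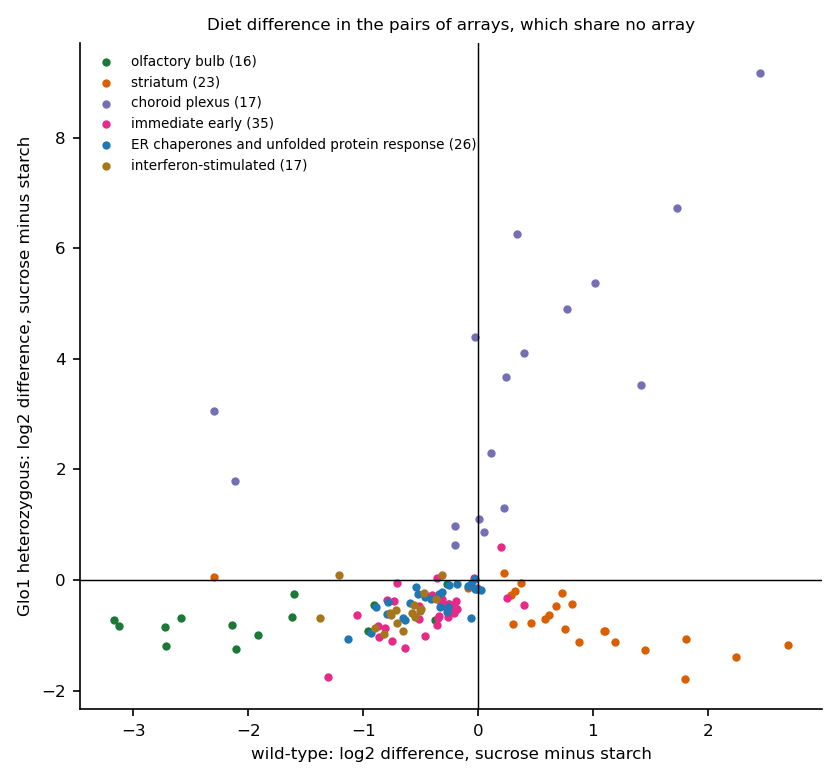
Log2 difference, sucrose minus starch, in wild-type mice on the x axis and in Glo1 heterozygous mice on the y axis, with each point 1 gene of 6 lists and the pairs sharing no array. Olfactory bulb, immediate early, ER chaperone and interferon genes lie mostly at the lower left, striatal genes at the lower right, and choroid plexus genes reach 9.18 on the y axis.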

How the data were processed

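Prefrontal cortex RNA of 3 mice a group was pooled, and 200 ng was labelled with Cy3 and hybridised to 1 Agilent array a group, per the labels' protocols. The authors deposited the scanner files of Agilent Feature Extraction 11.5.1.1, per the submitters' processing notes, whose processed signal is an intensity after background subtraction and detrending, per the file headers. The series' deposited value table holds, for 100% of spots within 0.1%, the ratio of that signal to each array's 75th percentile. It was used as an alternative.

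Here spots flagged as outliers were dropped, the log2 signal was centred on the 75th percentile of non-control spots, spots of a probe were averaged, and probes well above background on all 4 arrays were kept. Gene names came from the files, updated through RefSeq symbols, which held 19117 of the 20615 genes. A gene takes its brightest tested probe by mean log2 signal. Differences were counted at 2-fold, with no test, since 1 array a group gives none. Some genes that the naming rule picks are not reported here. The computation ran in Python 3.11.15 with pandas 2.3.3, and the alternatives in limma 3.58.1 (normexp with offset 50, quantile, cyclic loess) on R 4.3.3, and was tested on simulated data. Other alternatives were median scaling, other filters, other folds, keeping flagged spots and the mean over a gene's probes.

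The members, the 39 gene lists (22 of pathways, 16 of cell types and 1 of reference genes) and the alternatives were chosen with earlier results of these data known. Genes were named by rule: list members past 2-fold and the 2 highest and 2 lowest of a list described; all members of the immediate early, ER, clock, striatum, choroid plexus and red blood cell lists; the 10 highest and 10 lowest genes at or above the median signal; the 5 highest and 5 lowest at any signal and among genes whose probes all passed; the 3 highest and lowest bounds; and Homer1 and Glo1.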

Additional observations from a re-analysis of the deposited data

Results flagged for a closer look

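In 11 of the genes named by the rule the wild-type and heterozygous pairs were past 2-fold in opposite directions, with 1 array a group, so the difference between genotypes was not tested. The striatal genes among them were higher on sucrose in wild-type mice and lower in heterozygous mice, as log2 differences. Adora2a stood at 1.80 and -1.79, Drd1 at 1.45 and -1.27, Gpr6 at 1.81 and -1.07, Rgs9 at 1.19 and -1.13, Six3 at 2.70 and -1.18, and Slc10a4 at 2.25 and -1.40. Serpina9, outside the lists, stood at 1.16 and -1.50. The choroid plexus genes Aqp1, at -2.11 and 1.79, and Cltrn, at -2.30 and 3.06, and the cilia factor Foxj1, at -1.01 and 1.26, ran the other way round. Prl, prolactin, stood at 1.59 and -3.33. The wild-type differences of Prl, Cltrn and Foxj1 came to 0.33, -0.89 and -0.72 with normexp. That of Rgs9 came to 0.94 over the mean of its probes. These values are below 2-fold, so the flag depends on the processing for these genes.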

How the results depend on the processing

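The counts at 2-fold depended on the background correction and the filter. Genes past 2-fold numbered 305 (100 higher, 205 lower), against 105 (28 and 77) with normexp, 1573 (687 and 886) with no filter on dim probes, 65 (12 and 53) at or above the median signal, 1224 (495 and 729) at 1.5-fold and 45 (17 and 28) at 4-fold. Probes numbered 554 (208 and 346), against 175 (51 and 124), 3304 (1480 and 1824), 94 (18 and 76), 2516 (1145 and 1371) and 85 (38 and 47) under the same settings. Median scaling, quantile, cyclic loess, the deposited value table, kept outlier spots, a filter on the wild-type arrays alone and the mean over probes each stayed within 1.5 times these counts. Among the scalings and corrections at 2-fold with the dim-probe filter, the share of gene calls that were higher ran from 26.7% with normexp to 35.1% with quantile, against 32.8%. List medians were compared with the repeated-spot SD of 0.061. With normexp the medians came to -1.47 (bulb), 0.62 (striatum), 0.17 (choroid plexus), 0.11 (clock) and -0.50 (interferon), with the mean over probes to -1.13 (red blood cells), 0.58 (striatum) and -0.58 (interferon), and for red blood cells to -0.89 with quantile and -0.90 with loess. The immediate early and ER medians moved by less. Signs turned for the hormone list, -0.078 with normexp, and the prostaglandin list, 0.0016 with quantile. Medians near 0 also took the other sign in some alternative for glycolysis (up to 0.075), respiration (0.050), insulin and IGF (0.041), sugar transport (0.038), reference genes (0.018), antioxidant (0.00023), carbonyl detoxification (0.00073) and pericytes (down to -0.0023), so these lists have no settled direction. Quantile gave -0.15 for heat shock, -0.039 for ribosomal, -0.075 for microglial and 0.10 for cholesterol genes, and the mean over probes -0.19 for melanocyte and -0.0049 for glucocorticoid genes. Of 71 named genes past 2-fold 49 stayed past it in every alternative and 0 changed sign. No paired analysis of the wild-type comparison was possible because each group is 1 array. The causes of these shifts were not tested. The SD of a single-spot difference was 0.061 in the brightest of 4 signal bins, over 291 repeated probes, and 0.13 in each of the middle bins, over only 3 and 5, and the dimmest held none, so the technical spread of dim probes was not measured.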
